A study of Mus musculus with 20 samples.

Results

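The net change in gene expression of the mouse cochlea from embryonic day 16 (E16) to postnatal day 16 (P16) was measured by comparing the 3 cochlear P16 libraries with the 3 cochlear E16 libraries of a series of 20 RNA sequencing libraries. Both sets were chosen by the organ and age in their titles. The 3 cochlear libraries from the day of birth (P0) served to divide each net change into a step from E16 to P0 and a step from P0 to P16. Of 22734 genes in the count table, 21829 had counts in the cochlea and 21097 passed a detection limit of 0.5 CPM (counts of a gene scaled to a common library size) in all 3 libraries of at least 1 age. All mice were wild type, of the substrain C57BL/6JOlaHsd, and untreated. Per the study's methods the tissue, named inner ear sensory epithelium, was dissected from inner ears of several mice of both sexes. Libraries were made with a strand-specific kit after removal of ribosomal RNA. The methods do not say how many ears or mice went into each cochlear library. The series also sampled the superior olivary complex of the brainstem, which is not described here.

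The cochlea turns sound into nerve signals in hair cells, whose bundles of actin-filled stereocilia open transduction channels when they are deflected. Inner hair cells pass the signal at ribbon synapses to spiral ganglion neurons, and outer hair cells amplify the vibration of the sensory epithelium. The stria vascularis and the supporting cells keep the potassium-rich endolymph that drives the transduction current. In the mouse the sensory cells leave the cell cycle and begin to differentiate before birth, and hearing begins in the second week after birth, so that E16 precedes hearing and P16 follows its onset.

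The 9 cochlear libraries held 23392111 to 33109083 counts each. No pair was identical. Chi-square values per degree of freedom between replicates lay between 5.0 and 60.1, above the 1 that counting alone would give. The first principal component, with 91.6% of the variance of the 500 most variable genes, followed age. Markers of the labelled tissue were present in all 9 libraries, with Sox2, a transcription factor of prosensory and supporting cells, at 19 to 58.0 CPM, Myo7a, a motor protein of hair cells, at 47.2 to 114 CPM, and the epithelial adhesion gene Epcam at 99.9 to 222 CPM. Other tissue was present too, since genes of bone, Schwann cells, blood and marrow were counted and are given with their values beside the results. P16 replicate 3 stood apart from the other P16 libraries in genes of dividing, erythroid and marrow cells, and results that rest on it are given with and without it. In bulk tissue, fewer cells of a type and less RNA per cell cannot be told apart. The study calls its replicates independent samples, and p-values measure the spread between them.

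Between E16 and P16, 3119 genes were higher at P16 (14.8% of those tested) and 2014 were lower (9.55%). A call required an adjusted p under 0.01 (edgeR quasi-likelihood test, Benjamini-Hochberg), a fold change over 2.5 and all 3 libraries of 1 age above all 3 of the other. Each library was also left out in turn, and where a call is given as lost without several libraries, each of them was left out alone. The median log2 fold change was 2.29 over the genes called higher and -1.99 over those called lower, and 0.0084 over all genes tested. From E16 to P0, 989 genes rose (4.69%) and 735 fell (3.48%). From P0 to P16, 3038 rose (14.4%) and 2215 fell (10.5%). The steps are unequal in length, because the second covers several times more days than the first.

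Most of the net change came after P0. Of the genes higher at P16, 1961 (62.9%) passed all criteria only in the step from P0 to P16, 301 (9.65%) only in the step from E16 to P0, and 178 (5.71%) in both steps. Of the genes lower at P16, the numbers were 1218 (60.5%) after P0, 180 (8.94%) by P0 and 57 (2.83%) in both steps. A further 627 of the genes higher (20.1%) and 510 of those lower (25.3%) passed in neither step alone. The remainder moved against their net direction in 1 step, in 40 genes higher (1.28%) and 47 lower (2.33%), or went past their P16 level at P0 and came back, in 12 (0.385%) and 2 genes (0.0993%). These classes count thresholds passed and do not show that a gene was still in the other step. The difference between the steps was therefore tested in the same fit, where it passed an adjusted p of 0.01 in 8100 of all genes (38.4%). Within the genes called for net change, the later step was the larger in 1318 genes higher (42.3%) and 1074 lower (53.3%), the earlier step in 194 (6.22%) and 52 (2.58%), and the difference was not called in 1607 and 888.

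**Figure D1:**
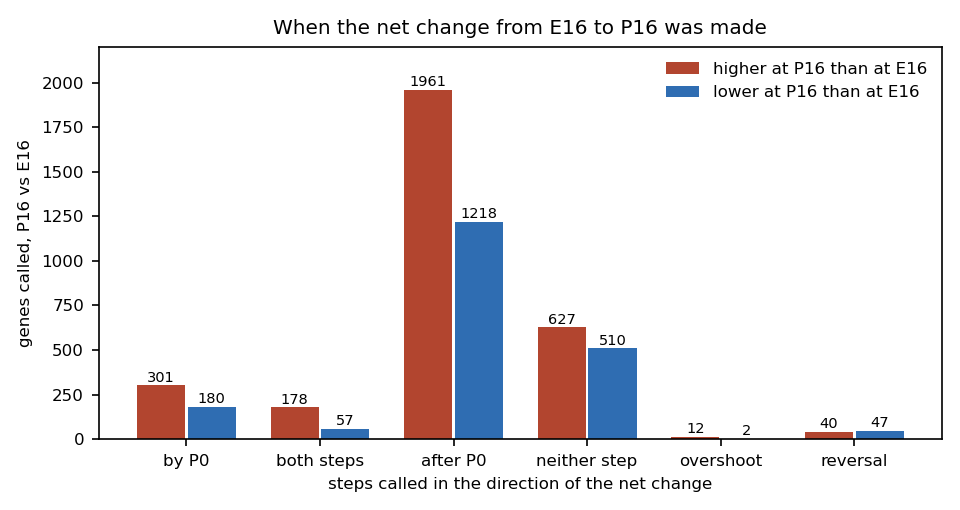
Number of genes called higher (red) or lower (blue) at P16 than at E16, divided by the step in which the change passed the criteria; each bar counts genes. The bars for genes that passed only after P0 are the tallest, with 1961 genes higher and 1218 lower, against 301 and 180 that passed only by P0.

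The share of the net log2 change that had been reached at P0 was low in the middle of the distribution. Its median was 22.3% for genes higher at P16 and 15.4% for genes lower. The genes that changed in both steps had a median net log2 fold change of 4.85 for those higher and -4.2 for those lower. Such genes had to pass the fold change criterion in each step in the net direction. A larger net change is therefore built into this class and is not a separate result. A comparison of the ends alone misses genes that peaked or dipped at birth. Without a net call, 272 genes rose from E16 to P0 and fell again by P16, and 278 fell and rose again.

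The 12 genes with the largest net rises were taken among those with at least 50 CPM at P16. Beside the tectorial membrane gene Ceacam16 and the glycine receptor subunit Glra3, they held Ocm, Otos, Calb2, Thy1, Ddn, Hapln4, Crhbp and Fbxo40, and the predicted genes Gm525 and Gm19345. Otos (chromosome 1, 92644218-92648841 in mm10), which encodes otospiralin of cochlear fibrocytes, stood at 0.544, 1.09 and 0.366 CPM in the E16 libraries, at 2.07, 1.07 and 0.844 CPM at P0 and at 372, 511 and 1531 CPM at P16. Its P16 libraries lay far above all 6 others, and its fold change from E16 to P16 was 1212 (log2 10.24 ± 0.78 SE, adjusted p = 3.69e-06). Calb2 (chromosome 8, 110137502-110168210), the calcium-binding protein calretinin, rose in both steps, from 1.05, 1.42 and 0.768 CPM at E16 through 27.9, 30.6 and 32.8 CPM at P0 to 1090, 1542 and 1007 CPM at P16. The step to P0 amounted to 4.82 ± 0.24 and the later step to 5.32 ± 0.21 on the log2 scale (SE), a difference that was not called (adjusted p = 0.266). Gm19345 (chromosome 7, 19852003-19858350) overlaps Ceacam16 (19852097-19861299), which lies on the other strand. Gm19345 shares 38.3% of its exon sequence with genes of the other strand and Ceacam16 23.2%. The counts of both are therefore uncertain.

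Among the genes with the largest net falls, with at least 50 CPM at E16, were Crym, H19, Oc90, Vcan, Mex3a, Tubb2b, Gap43, Cldn6 and Mfap4, next to Tecta, Hmga2 and Igf2bp1. Crym (chromosome 7, 120186380-120202111), a thyroid hormone binding protein, was at 551, 538 and 506 CPM at E16 and at 478, 398 and 387 CPM at P0. At P16 it was at 6.54, 6.65 and 5.71 CPM, below all other libraries (log2 fold change against E16 -6.40 ± 0.14, adjusted p = 3.28e-10). Vcan, the matrix proteoglycan versican, fell from 346 ± 15 CPM (SD, n = 3) to 5.16 ± 0.558 CPM, and Tubb2b, a tubulin of immature neurons, from 264 ± 10.3 to 7.7 ± 0.798 CPM. Apart from Hmga2, which fell in both steps, and Tecta, which rose before it fell, these 12 genes passed in the step after P0 only. The rise of Tecta was not called without P0 replicate 3 (log2 1.23).

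**Figure D2:**
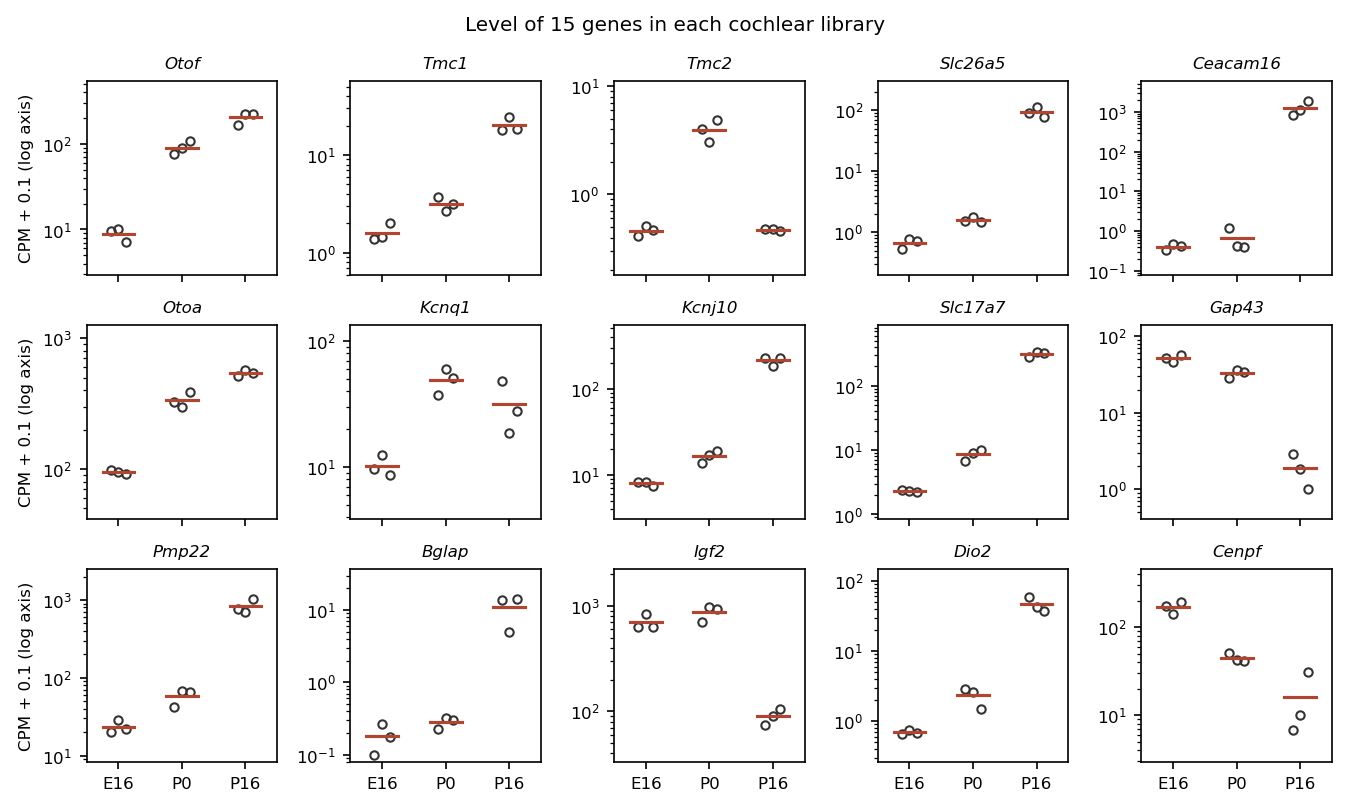
Levels of 15 genes in the 9 cochlear libraries, in CPM + 0.1 on a log axis, by age; each point is 1 library and each red line a mean. Otof and Otoa had already risen at P0, Tmc1, Slc17a7 and Bglap were far higher at P16 than at either earlier age, Tmc2 was high only at P0, and the points of Cenpf at P16 are spread by replicate 3.

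Of 12 mechanotransduction genes, 5 were called higher at P16 (41.7%, all genes 14.8%), and 4 of these had passed by P0. The list median was 1.23 for the net change and 1.22 for the step to P0, against 0.0084 and 0.035 over all genes. Lhfpl5 and Tomt, which are needed to bring the channel to the tips of stereocilia, and the channel partner Cib2 and the scaffold Ush1g had made 71.6% or more of their net log2 change by P0. The net call of Tomt was lost without P16 replicate 3 (log2 1.25), and the call of Ush1g for the step to P0 without E16 replicate 1 or 3 or P0 replicate 1, 2 or 3 (log2 1.22 to 1.51). Cib2 was at 10.1, 12.1 and 10.2 CPM at E16, 32.5, 33.6 and 36.6 CPM at P0 and 32, 40.9 and 40.2 CPM at P16, so that the P0 and P16 libraries overlapped and both stood above E16.

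The pore proteins themselves followed another course. Tmc1 (chromosome 19, 20783458-20954202), the pore-forming subunit of mature hair cells, was at 1.28, 1.34 and 1.9 CPM at E16, 3.64, 2.58 and 3.04 CPM at P0 and 18.1, 24.3 and 18.2 CPM at P16, a 13.3-fold net rise (log2 3.74 ± 0.22, adjusted p = 1.03e-07) of which 27.4% on the log2 scale was present at P0. Its later step exceeded its earlier step (difference 1.69 ± 0.37, adjusted p = 0.0029). Tmc2 (chromosome 2, 130195194-130264445), the subunit used by immature hair cells, was at 0.311, 0.406 and 0.366 CPM at E16, 3.89, 2.96 and 4.76 CPM at P0 and 0.382, 0.377 and 0.357 CPM at P16. Only the P0 libraries were high, the rise and the fall were both called (log2 3.41 ± 0.26 and -3.36 ± 0.25), and the comparison of E16 with P16 alone gave 0.05 ± 0.32 (adjusted p = 0.92). Cdh23 of the tip link also rose to P0 (log2 1.87 ± 0.28), while its net change of 1.25 was called only without E16 replicate 2 or P16 replicate 1 (log2 1.44 to 1.45).

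In the hair bundle list, 9 of 26 genes were higher (34.6%, all genes 14.8%) and 2 lower (7.69%, all genes 9.55%) at P16. In the step to P0 12 had risen, where 4.69% of all genes did. The list median was 1.28 for that step and -0.17 for the later one. Espn (actin bundling), Ptprq, Grxcr2, Loxhd1, Fscn2, Xirp2 and Myo15, the motor that elongates stereocilia, reached 73.4% or more of their net log2 change by P0. Strc, which encodes stereocilin of the links between stereocilia and of their attachment to the tectorial membrane, rose in both steps. It was at 0.35, 0.649 and 0.658 CPM at E16, 14.3, 15.8 and 19.9 CPM at P0 and 29.5, 58.6 and 55.6 CPM at P16, and its earlier step was the larger (log2 4.90 ± 0.34 against 1.52 ± 0.25, adjusted p of the difference = 0.000181).

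A few bundle genes were high at birth and lower in the hearing cochlea, and 4 of 26 fell after P0, where 10.5% of all genes did. Adgrv1, a large protein of the ankle links that immature stereocilia lose, fell after P0 from 68.6, 49.8 and 67 CPM at P0 to 11.6, 10.8 and 9.8 CPM at P16 (log2 -2.52 ± 0.15, adjusted p = 1.72e-07). Its E16 libraries, at 52.5, 42 and 48 CPM, overlapped with those of P0 and lay above all of P16. Espnl rose from 5.64 ± 0.955 to 36.8 ± 5.44 CPM and fell to 2.6 ± 0.34 CPM, and Myo3b, a motor that carries espins, rose by 2.10 and fell again (log2 -1.35 ± 0.15). The later call of Myo3b was lost without P0 replicate 3 or P16 replicate 3 (log2 -1.23 to -1.25). Neither had a called net change.

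Of 15 ribbon synapse genes, 10 were higher at P16 (66.7%, all genes 14.8%). Otof (chromosome 5, 30367062-30461932), the calcium sensor for transmitter release from hair cells, was at 9.45, 9.98 and 6.95 CPM at E16, 75, 88.5 and 107 CPM at P0 and 168, 224 and 220.0 CPM at P16. The ages did not overlap, the net rise was 23.2-fold (log2 4.54 ± 0.20, adjusted p = 1.44e-08), and 74% of it on the log2 scale was present at P0. Gipc3 had the same class, with 91% reached at P0.

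Of the other 8 called higher, 4 passed after P0, 1 in both steps and 3 in neither. Slc17a8, the transporter that fills synaptic vesicles of inner hair cells with glutamate, stood at 3.58, 2.48 and 2.85 CPM at E16, 6.37, 6.13 and 5.54 CPM at P0 and 60.2, 69.4 and 48.2 CPM at P16. Its later step exceeded the earlier one (log2 3.30 ± 0.18 against 1.02 ± 0.18, adjusted p = 0.000138). Cabp1 (3.41 ± 0.15) and the plasma membrane calcium pump gene Atp2b2 (3.41 ± 0.16) rose on the log2 scale with all of their called change after P0, and Cabp2, a calcium sensor that tunes the hair cell calcium channel, rose in both steps. Cacna1d, that channel's pore, rose by 1.65 ± 0.10 in all without passing in either step. The ribbon component Ctbp2 (-0.52) and the scaffold Bsn (0.37) were not called.

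Of 10 genes of outer hair cells 7 were higher at P16 (70%, all genes 14.8%) and 1 lower (10%, all genes 9.55%). Of the 7 higher, 3 passed by P0, 1 after P0, 2 in both steps and 1 in neither. The subunits of the nicotinic receptor through which efferent fibres inhibit outer hair cells, Chrna9 and Chrna10, passed by P0, with 94.5% and 86.4% of their net log2 change. Chrna9 was at 0.544, 0.487 and 0.549 CPM at E16, 5.34, 4.17 and 5.67 CPM at P0 and 5.35, 6.84 and 5.08 CPM at P16, with P0 and P16 overlapping. Slc26a5 (chromosome 5, 21810655-21865604), the motor protein prestin, was at 0.428, 0.69 and 0.622 CPM at E16, 1.41, 1.7 and 1.39 CPM at P0 and 89.7, 114 and 78.5 CPM at P16. The net rise was 161-fold, and the later step (log2 5.97 ± 0.20) exceeded the earlier (1.36 ± 0.25, adjusted p of the difference = 7.37e-06). Ocm, the calcium buffer oncomodulin, was at no more than 0.0348 CPM on average before P16 and at 59.4, 96.6 and 83.7 CPM in the P16 libraries. Kcnn2, the potassium channel coupled to the efferent receptor, rose in both steps (1.89 and 1.68), and the transcription factor Bcl11b fell after P0 (net log2 -4.16 ± 0.19).

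Of 12 transcription factor genes of hair cells, Gfi1 was the 1 called higher (8.33%, all genes 14.8%). Atoh1 and Insm1 were called lower (16.7%, all genes 9.55%). Atoh1, which starts hair cell differentiation, was at 7.85, 8.93 and 7.57 CPM at E16 and 6, 7.17 and 7.33 CPM at P0, and at 0, 0.0314 and 0.0793 CPM at P16, with no overlap between P16 and the earlier ages (adjusted p = 2.01e-08). Gfi1 had risen by P0 (2.13 ± 0.712 to 9.92 ± 2.25 CPM) and stood at 8.46 ± 2.91 CPM at P16. Barhl1 and Lhx3 peaked at birth with no net call: Barhl1 was at 3.27, 4.14 and 2.74 CPM at E16, 15.2, 19.5 and 19 CPM at P0 and 2.67, 2.73 and 3.45 CPM at P16. Pou4f3, needed for hair cell survival, had a net change of 0.77 ± 0.14 that was not called.

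Of 15 matrix genes of the tectorial membrane and the otoconia, 5 were higher (33.3%, all genes 14.8%) and 2 lower (13.3%, all genes 9.55%). Without P16 replicate 1 or 2, 4 were lower. Otoa, which encodes otoancorin of the attachment of the tectorial membrane, and the collagen gene Col11a2 passed by P0, Otoa from 98.7, 95.3 and 91.2 CPM at E16 to 324, 296 and 388 CPM at P0 and 514, 572 and 539.6 CPM at P16. Emilin2 rose after P0, from 46.2, 60.9 and 58.3 CPM to 1075, 1119 and 849 CPM, with E16 at 21.8, 21.9 and 23.2 CPM. The tectorin gene Tectb, whose product is the partner of that of Tecta, fell after P0 (log2 -2.14 ± 0.12) from a P0 level of 390.2 ± 54.2 CPM, while its earlier step of 1.02 and its net change of -1.12 were not called. Oc90, an otoconial protein of the vestibule, fell from 1352, 1409 and 1566 CPM at P0 to 36, 22.7 and 20.4 CPM at P16 (E16, 1667, 1815 and 1822 CPM). Otoconia belong to the vestibular organs, and the part of vestibular tissue in these samples was not tested.

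In the prosensory list 20 of 27 genes had no net call and 6 were lower (22.2%, all genes 9.55%), all in the step after P0. These were the Notch target Hes5, the growth factor genes Fgf20, Fgf8 and Bmp4, and the FGF-induced transcription factors Etv4 and Etv5. Fgf20, which is needed for outer hair cells and their supporting cells to form, was at 2.29, 2.31 and 2.19 CPM at E16, 1.2, 1.26 and 1.01 CPM at P0 and 0.0382, 0 and 0.0397 CPM at P16. Etv4 fell after P0, with means of 37.3 ± 6.54, 34.5 ± 5.06 and 5.74 ± 1.47 CPM at E16, P0 and P16. Fgfr3, a receptor of pillar and Deiters' cells, was the 1 gene called higher (log2 1.33 ± 0.14), a call that was lost without E16 replicate 1 or 3 or P16 replicate 2 or 3 (log2 1.24 to 1.30). The call of Bmp4 for the step after P0 was lost without P0 replicate 2 or P16 replicate 3 (log2 -1.28 to -1.30). Sox2 (-1.23), Jag1 (-1.07) and Notch1 (-0.69) had net values below 0 that were not called. In the step after P0, 11 genes of this list fell, Notch1 among them, where 10.5% of all genes did.

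Of 14 genes of mature supporting cells, 11 were higher at P16 (78.6%, all genes 14.8%) and the list median was 2.37. Gjb2 and Gjb6, the connexins whose gap junctions carry potassium and metabolites between supporting cells, differed in timing. Gjb2 was at 120.1, 127 and 121 CPM at E16, 286, 417 and 374 CPM at P0 and 525, 467 and 606 CPM at P16, with 73.2% of the net log2 change by P0. Gjb6 was at 17.3, 15.3 and 11.3 CPM, 60.6, 72 and 58.9 CPM and 419.6, 428 and 407 CPM at those ages, and reached 43.9%. The calcium-binding gene S100b rose in both steps, from 9.13 ± 0.483 through 47.9 ± 7.38 to 1095 ± 153 CPM. The water channel gene Aqp4 (log2 5.26 ± 0.24), Fbxo2 (3.71 ± 0.20), Bace2 (3.22 ± 0.16) and the glutamine synthetase gene Glul (2.45 ± 0.18) rose after P0.

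Of 29 otic patterning factors, 6 were lower (20.7%, all genes 9.55%), namely Pax2, Tbx18, Six5, Msx1, Hmx2 and Prrx2. Dlx5 was the 1 called higher (3.45%, all genes 14.8%), from 0.662 ± 0.194 to 3.24 ± 0.995 CPM. Pax2 was at 18.3, 30.6 and 21.4 CPM at E16, 26.6, 42.1 and 40.2 CPM at P0 and 7.72, 4.83 and 6.43 CPM at P16. Eya1 (-0.59), Gata3 (-0.63) and Sox9 (-0.48) were not called for net change. The list held 3 lower genes without E16 replicate 2. The net calls of Six5 and Prrx2 were lost without E16 replicate 2 or P16 replicate 1 or 2 (log2 -1.08 to -1.22) and without E16 replicate 2 or P16 replicate 1 or 2 (log2 -0.99 to -1.20), and that of Hmx2 without E16 replicate 1, 2 or 3 or P0 replicate 1, 2 or 3 or P16 replicate 2 or 3 (log2 -1.41 to -1.88).

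Of 25 genes for ion transport in the stria vascularis and the endolymph, 16 were higher (64%, all genes 14.8%). Atp6v1b1, a subunit of the proton pump, was the 1 called lower (4%, all genes 9.55%). Kcnq1 and Kcne1, which encode the channel that secretes potassium into the endolymph, had passed by P0 with all 9 libraries. Kcnq1 was at 9.49, 12.4 and 8.52 CPM at E16, 37.2, 60.3 and 50.7 CPM at P0 and 48.4, 18.6 and 27.7 CPM at P16, where replicate 1 lay within the P0 range and the other two lay below it. The net rise was called with all libraries (log2 1.64 ± 0.32, adjusted p = 0.00112) and not without P16 replicate 1 (log2 1.18), and that of Kcne1 was not called without E16 replicate 1 or 3 or P16 replicate 1 (log2 1.31 to 1.97). In the list, 14 genes were higher without P16 replicate 1, and 3 in place of 5 passed by P0. Kcnj10 (chromosome 1, 172341210-172374085), the potassium channel of intermediate cells on which the endocochlear potential depends, was at 8.2, 8.19 and 7.24 CPM at E16, 13.7, 17 and 18.7 CPM at P0 and 228, 182 and 227 CPM at P16. Its later step was the larger (log2 3.69 ± 0.15 against 1.06 ± 0.14, adjusted p = 1.57e-05). Kcnj10 is also expressed in glia.

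Coch, the fibrocyte matrix protein cochlin, rose after P0 from 291, 179.6 and 225 CPM to 6320, 6869 and 8130 CPM (E16, 138, 142 and 135 CPM), a net 51.4-fold. The anion exchanger gene Slc26a4 (log2 2.40 ± 0.18), the channel gene Kcnj16 (5.88 ± 0.15) and the sodium pump subunit Atp1b1 (3.37 ± 0.12) also rose after P0, whereas Atp1b2 (2.58 ± 0.24) and the carbonic anhydrase gene Car12 (2.62 ± 0.18) had passed by P0. Bsnd, the subunit of the chloride channels of marginal cells, rose to P0 (log2 2.00 ± 0.42) and fell again (-1.60 ± 0.41), but its rise was not called without E16 replicate 1, 2 or 3 or P0 replicate 1, 2 or 3 (log2 1.82 to 2.11), nor its fall without E16 replicate 2 or P0 replicate 1, 2 or 3 or P16 replicate 2 or 3 (log2 -1.27 to -1.70). Several strial genes had 1 high P16 library. Bsnd was at 7.83, 2.07 and 2.58 CPM and Atp6v0a4 at 13.1, 3.55 and 3.61 CPM in P16 replicates 1 to 3, and the melanocyte gene Dct, which marks intermediate cells, at 367, 75.1 and 95.3 CPM in the same order, so that P16 replicate 1 held the highest level of each. The part of dissection in this was not tested.

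Among gap and tight junction genes 7 of 20 were higher (35%, all genes 14.8%) and 2 lower (10%, all genes 9.55%). Gja1, which encodes connexin 43, was among the genes lower by P0, with 133, 105 and 132 CPM at E16, 31.7, 26.8 and 25.2 CPM at P0 and 35.5, 24.8 and 31.1 CPM at P16. Its earlier step was the larger (log2 -2.14 ± 0.16 against 0.13 ± 0.15, adjusted p = 7.61e-05). The claudin genes ran in opposite directions. Cldn6, of embryonic epithelia, fell after P0 from 60.8 ± 5.83 to 4.45 ± 1.15 CPM, while Cldn14, whose product seals the junctions of hair cells, rose in both steps from 1.64 ± 0.13 through 6.72 ± 0.83 to 18.8 ± 1.86 CPM.

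Of 32 voltage-gated potassium channel genes, 16 were higher (50%, all genes 14.8%) and 2 lower (6.25%, all genes 9.55%). Without P16 replicate 3, 4 were lower. Of the 16 higher, 11 passed after P0 only. Kcna1, a channel of axons that limits repeated firing, was at 8.32, 8.28 and 8.71 CPM at E16, 7.78, 13.3 and 11.5 CPM at P0 and 605, 590.5 and 516 CPM at P16, a 67.6-fold net rise. Kcna2 (log2 4.74 ± 0.14), their accessory subunit Kcnab2 (4.05 ± 0.21), Kcnc1 of fast-spiking neurons (4.33 ± 0.23) and Kcnma1, the calcium-activated channel of mature inner hair cells (3.36 ± 0.12), rose in that step too. Kcna10 rose in both steps with the earlier the larger (log2 4.55 ± 0.31 and 2.83 ± 0.18, adjusted p = 0.00804). Kcnc2 fell by P0, from 15.9 ± 0.724 to 4.69 ± 0.672 CPM, and Kcnq5 after P0 (net -2.65 ± 0.21).

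Sodium channel genes moved in both directions. Of 13, 5 were higher (38.5%, all genes 14.8%), all 5 after P0. Lower were 4 (30.8%, all genes 9.55%), 3 of them after P0 and 1 in neither step. The pore genes Scn1a (log2 3.92 ± 0.16) and Scn8a (3.14 ± 0.15) and the accessory subunit gene Scn4b (6.53 ± 0.19) rose after P0, while Scn3a (-3.16 ± 0.15), a pore gene of embryonic neurons, Scn9a (-1.82 ± 0.14), Scn11a (-4.32 ± 0.26) and Scn3b (-1.82 ± 0.15) were lower. Scn8a, the main pore at mature nodes of Ranvier, was at 27.9, 27.8 and 27.6 CPM at E16, 18.8, 27.9 and 25.6 CPM at P0 and 219, 250.3 and 267 CPM at P16, and Scn3a at 45.9, 34.6 and 42.8, 15.2, 17.4 and 17.5 and 4.05, 5.05 and 4.64 CPM. Scn4b was at 3.02, 4.65 and 4.02 CPM at P0 and 224, 288 and 274 CPM at P16. P16 and P0 did not overlap in any of these 3 genes. The fall of Scn3a to P0 (log2 -1.30) was not called with all libraries. It was called without E16 replicate 2, P0 replicate 2 or 3 or P16 replicate 3 (log2 -1.33 to -1.41).

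Of 17 calcium channel genes 4 were higher (23.5%, all genes 14.8%) and 4 lower (23.5%, all genes 9.55%). The T-type channel genes Cacna1g (log2 -1.55 ± 0.20) and Cacna1h (-4.10 ± 0.27) were among the falls after P0. Another T-type gene, Cacna1i, was higher at P16 (log2 1.88) and had risen by P0 (1.87). Its net call was lost without E16 replicate 1 or 2 (log2 1.78 to 1.86). The call for its step to P0 was lost without E16 replicate 1, 2 or 3 or P0 replicate 2 or 3 (log2 1.68 to 2.03). Cacna1h was at 60.4, 98.1 and 91.2 CPM at P0 and 3.25, 4.89 and 5.83 CPM at P16. Of 11 calcium-binding genes 6 were higher (54.5%, all genes 14.8%) and 1 lower (9.09%, all genes 9.55%). Pvalb, parvalbumin, rose after P0 from 21.6 ± 2.07 to 214 ± 65.3 CPM, while Calb1, calbindin, fell from 94.7, 57.6 and 81.8 CPM to 7.83, 6.87 and 5.55 CPM, with E16 at 64.2, 49 and 60.5 CPM.

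In the list of spiral ganglion neuron genes 13 of 26 were higher (50%, all genes 14.8%) and 3 lower (11.5%, all genes 9.55%). Without P16 replicate 1, 5 were lower. Nefh (chromosome 11, 4938754-4948064), the heavy neurofilament subunit of mature large axons, was at 5.72, 6 and 6.88 CPM at E16, 14.2, 24.3 and 26.7 CPM at P0 and 933, 1022 and 1009 CPM at P16, and rose in both steps (log2 1.81 ± 0.21 and 5.50 ± 0.23). The light and medium subunits first went down, Nefl to 50.5, 56.5 and 51.8 CPM from 129, 89.7 and 142 CPM, a change that was not called (log2 -1.19 ± 0.19, adjusted p = 0.000758) except without E16 replicate 2 (log2 -1.36), and then up to 507, 545 and 356 CPM. Slc17a7, a vesicular glutamate transporter of these neurons, rose in both steps from 2.22 ± 0.0874 through 8.63 ± 1.72 to 313 ± 31.5 CPM. Snap25 of the release machinery (log2 4.98 ± 0.20), Syn1 (2.29 ± 0.23) and Map2 (1.69 ± 0.14) rose after P0.

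The 3 genes of the list that fell were Gap43, Dcx and Prph. Gap43, of growth cones, was at 52.9, 46.5 and 57 CPM at E16, 28.4, 35.9 and 33.8 CPM at P0 and 2.75, 1.76 and 0.912 CPM at P16 (net log2 -4.84 ± 0.29, adjusted p = 1.14e-07). Dcx, doublecortin of migrating neurons, fell with -4.09 ± 0.17, and Prph, the filament peripherin kept by type II neurons, with -2.83 ± 0.30. All 3 passed in the step after P0, and Dcx also in the step to P0 without E16 replicate 2 or P0 replicate 3 (log2 -1.33 to -1.42). Tubb3 (0.94), Ntrk2 (0.32) and Ntrk3 (0.75) were not called, so that the rises above were not shared by every gene of these neurons.

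Receptor genes for transmitters went both ways. Of 21 glutamate receptor genes, 5 were higher (23.8%, all genes 14.8%) and 5 lower (23.8%, all genes 9.55%). Gria2, the AMPA receptor subunit that limits calcium entry, fell from 24.2, 15.7 and 19.8 CPM at E16 to 9.02, 7.46 and 6.28 CPM at P0 and rose to 79.5, 68.9 and 51.3 CPM at P16, with both steps called. The fall of Gria2 to P0 was not called without E16 replicate 1 or P0 replicate 3 (log2 -1.23 to -1.27). The obligatory NMDA receptor subunit gene Grin1 (log2 3.67 ± 0.27) and Grin2c (4.64 ± 0.23) rose after P0, while Grin2a fell from 18.8, 20.9 and 20.7 CPM at P0 to 3.36, 0.659 and 0.357 CPM at P16, where 1 library was several times above the other two. Grin2b peaked at birth (1.33 ± 0.509, 6.85 ± 1.63 and 1.53 ± 0.931 CPM). Among 19 genes of GABA and glycine signalling, Gabra2 (-3.84 ± 0.37), Gabra3 (-5.28 ± 0.26), Gabra4 (-1.83 ± 0.20) and the GABA-synthesising enzyme gene Gad2 (-1.98 ± 0.26) fell after P0, and the glycine receptor beta subunit gene Glrb rose from 16.8, 11.3 and 13.1 CPM to 180.2, 197 and 174 CPM.

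Myelin genes had the highest median of the glial lists, 3.85, with 9 of 12 higher (75%, all genes 14.8%). In the Schwann cell list 9 of 16 were higher (56.2%) and 2 lower (12.5%, all genes 9.55%), with a median of 3.08. Pmp22, a membrane protein of peripheral myelin, was at 19.8, 28.6 and 21.5 CPM at E16, 42.4, 67.9 and 64.5 CPM at P0 and 760.0, 699 and 1019 CPM at P16, a net 35.5-fold. The later step was the larger (log2 3.83 ± 0.23 against 1.32 ± 0.21, adjusted p of the difference = 0.000304), and the earlier was not called without E16 replicate 1 or 3 or P0 replicate 2 or 3 or P16 replicate 1 or 3 (log2 1.20 to 1.32). Ncmap (net log2 5.13 ± 0.19) rose in both steps, and Prx, periaxin (5.67 ± 0.19), and Egr2, the transcription factor that drives myelination (3.29 ± 0.22), after P0. Fabp7, of immature Schwann cells, fell from 175 ± 43 through 46.3 ± 17.4 to 16.4 ± 6.69 CPM. The lineage gene Sox10 stood at 184 ± 49.9 CPM at E16 and 195 ± 60.5 CPM at P16 and was not called.

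**Figure D3:**
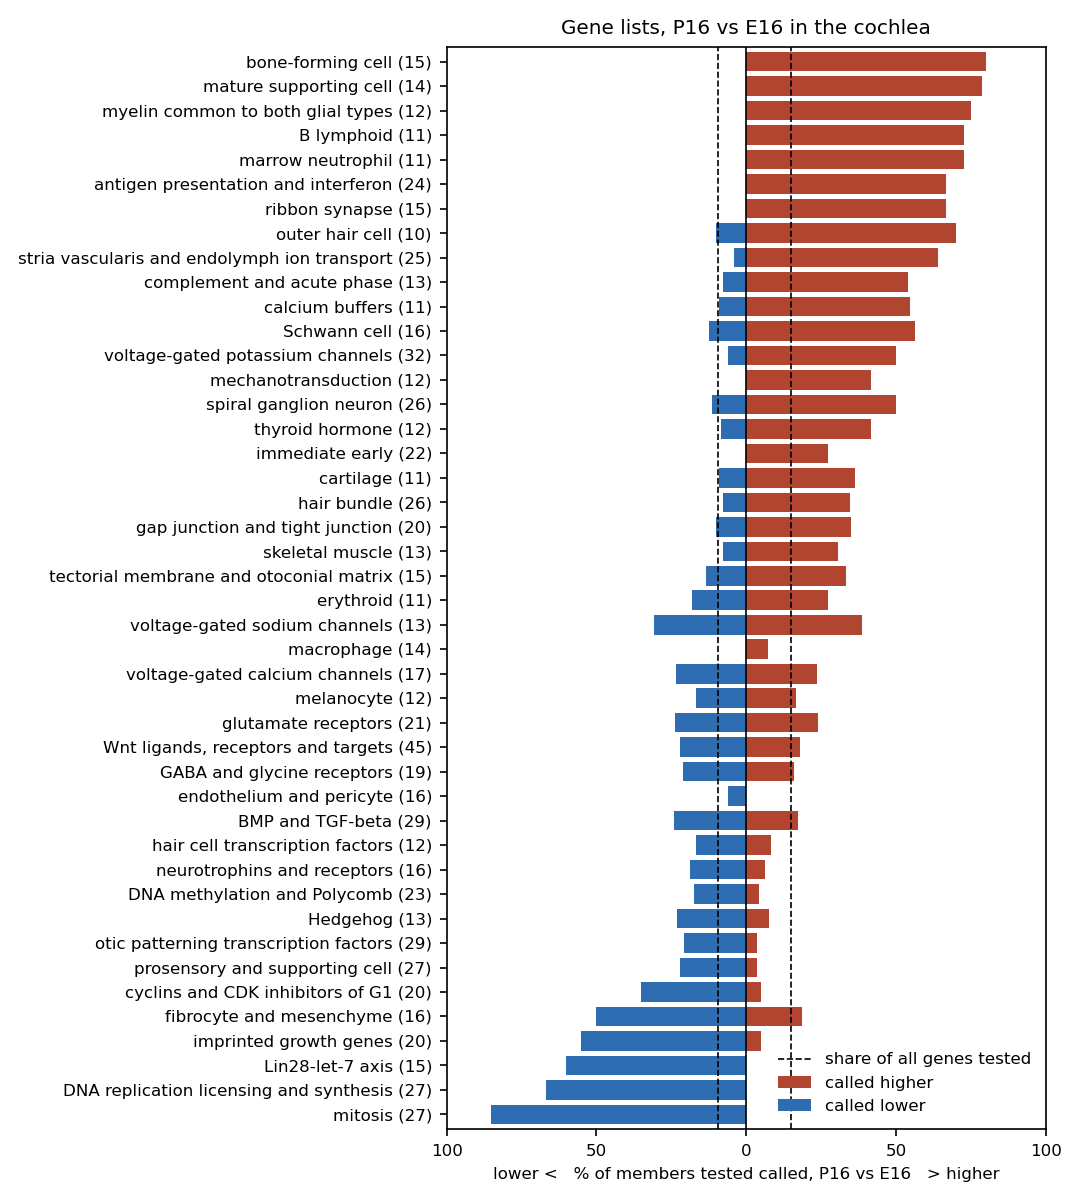
Percentage of the tested members of each gene list with at least 10 members that were called higher (right) or lower (left) at P16 than at E16; dashed lines mark the shares over all genes, 14.8% and 9.55%. Mature supporting cell, myelin and bone genes reach farthest to the right, and mitosis, DNA replication and Lin28-let-7 genes farthest to the left.

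Of 15 genes of bone-forming cells, 12 were higher (80%, all genes 14.8%) and 11 of them passed after P0. Ibsp, bone sialoprotein, was at 1.94, 1.46 and 2.16 CPM at E16, 1.36, 1.74 and 0.709 CPM at P0 and 225, 74.1 and 143 CPM at P16, and Dmp1, of osteocytes, at 0.993, 1.37 and 1.01 CPM at P0 and 172, 98.7 and 113 CPM at P16. In both genes the P16 libraries lay above all others and differed widely among themselves. Of 6 osteoclast genes 3 were higher (50%, all genes 14.8%). In the cartilage list 4 of 11 were higher (36.4%, all genes 14.8%) and 1 lower (9.09%, all genes 9.55%). Of the 4 higher, 3 passed after P0 and 1 with a reversal. Matn1, a matrix protein of cartilage, rose to P0 and then fell below its start (14.7, 21.5 and 15.8, 74.5, 68.9 and 74.7 and 1.15, 1.04 and 1.43 CPM at the 3 ages). In the list of fibrocyte and mesenchymal genes 3 of 16 were higher (18.8%, all genes 14.8%), 1 by P0, 1 after P0 and 1 in both steps. In the same list 8 were lower (50%, all genes 9.55%), all after P0. Among these were the collagen gene Col3a1 (log2 -2.25 ± 0.15), Postn (-4.01 ± 0.14), Tnc (-1.94 ± 0.17) and the adhesion gene Cdh11 (-2.66 ± 0.15). The part that dissection at each age had in these values was not tested.

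Of 27 mitosis genes 23 were lower at P16 (85.2%, all genes 9.55%). Of these 23, 10 had passed by P0, against 8.94% of all genes lower at P16. The number that passed by P0 was 4 and 3 without E16 replicates 1 and 3, and 2 without any 1 of the P0 libraries, with 19 to 21 genes lower in these fits. The list median was -2.57 for the net change and -1.45 for the step to P0. Cenpf, a kinetochore protein, was at 172, 142 and 192 CPM at E16, 50.7, 42.5 and 41.1 CPM at P0 and 6.76, 9.85 and 30.8 CPM at P16. The ages did not overlap, and P16 replicate 3 stood far above the other P16 libraries. The checkpoint kinase gene Bub1 was at 36.1, 29.7 and 41.3, 8.31, 7.05 and 7.4 and 1.15, 1.22 and 6.58 CPM, and Ttk, another kinase of the spindle checkpoint, at 21.5, 19.1 and 25.1, 4.51, 4.54 and 4.9 and 0.879, 1.32 and 4.36 CPM, with the same library apart. These 3 genes and Kif2c had the largest falls among the genes that passed by P0 with at least 20 CPM at E16. Their calls for the step to P0 were lost in other fits with 1 library fewer, that of Cenpf without E16 replicate 1, 2 or 3 or P0 replicate 1, 2 or 3 (log2 -1.81 to -2.02), that of Bub1 without E16 replicate 1, 2 or 3 or P0 replicate 1, 2 or 3 (log2 -2.11 to -2.35), that of Ttk without P0 replicate 1, 2 or 3 (log2 -2.21 to -2.27) and that of Kif2c without P0 replicate 1, 2 or 3 (log2 -2.23 to -2.34).

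The promoters of these 3 genes are shown because they let the division genes be described by their sequence. The Kif2c window is not printed, since its RefSeq start lies 3867 bases from the GENCODE gene start, and it holds 1 match of TTTGAA and 0 of CCAAT. The windows run from 250 bases before to 50 bases after the RefSeq start in GRCm38.p6. Capitals mark CCAAT and the cell cycle homology region TTTGAA, each on either strand (ATTGG and TTCAAA on the other), letters known from genes of late cell cycle phases. The Bub1 window is chr2:127831810-127832109 on the minus strand, the Cenpf window chr1:189688037-189688336 on the minus strand and the Ttk window chr9:83834439-83834738 on the plus strand.
Bub1: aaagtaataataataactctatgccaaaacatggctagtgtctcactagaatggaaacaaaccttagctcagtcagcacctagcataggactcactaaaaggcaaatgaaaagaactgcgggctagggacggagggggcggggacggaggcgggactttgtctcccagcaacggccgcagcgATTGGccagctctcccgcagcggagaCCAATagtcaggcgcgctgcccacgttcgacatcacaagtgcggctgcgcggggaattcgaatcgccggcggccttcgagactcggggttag
Cenpf: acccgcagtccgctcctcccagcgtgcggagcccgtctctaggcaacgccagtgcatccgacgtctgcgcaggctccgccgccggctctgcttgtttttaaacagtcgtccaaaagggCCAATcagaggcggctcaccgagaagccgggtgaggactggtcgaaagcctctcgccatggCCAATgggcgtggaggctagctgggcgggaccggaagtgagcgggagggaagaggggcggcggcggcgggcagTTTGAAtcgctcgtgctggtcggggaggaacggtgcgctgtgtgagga
Ttk: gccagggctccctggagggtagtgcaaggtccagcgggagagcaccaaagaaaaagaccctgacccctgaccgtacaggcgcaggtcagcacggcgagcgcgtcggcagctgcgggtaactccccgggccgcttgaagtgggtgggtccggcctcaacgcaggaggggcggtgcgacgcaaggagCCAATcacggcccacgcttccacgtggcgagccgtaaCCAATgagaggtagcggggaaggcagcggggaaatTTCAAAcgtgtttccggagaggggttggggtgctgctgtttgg
TTTGAA occurred in 17 of 23 mitosis promoters with a sequence (73.9%) and in 12% of the 12707 promoters of genes tested, and CCAAT in 18 of 23 (78.3%) and 37.5%. Both occurred in 15 of 23 (65.2%) and in 4.88% of all. In the promoters of DNA replication genes CCAAT was found in 16 of 22 (72.7%) and TTTGAA in 3 of 22 (13.6%). These are matches of letters and describe the windows, and the Bub1 window holds 2 matches of CCAAT and none of TTTGAA.

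The values of the division genes at P16 rest in part on 1 library. Summed over the list, the mitosis genes came to 138, 187 and 732 CPM in P16 replicates 1 to 3, against 1868, 1699 and 2141 CPM in the E16 and 638, 647 and 668 CPM in the P0 libraries. In the same P16 order, 11 genes of marrow neutrophils summed to 57.9, 75.6 and 511 CPM and 11 erythroid genes to 178, 295 and 1207 CPM, so that P16 replicate 3 was the highest in all 3 lists. The part of marrow cells in its division genes was not tested. Without it, 27 of 27 mitosis genes were lower with a median of -3.83, and 2 passed by P0, 10 after P0 and 15 in both steps. Bub1, Kif2c, Cenpf and Ttk then passed in both steps, with later steps of -2.64, -2.19, -2.39 and -2.03 on the log2 scale. The step to P0 was fitted with the spread of all ages, and the genes called in it numbered 10 with this library and 17 without it, where 3.48% of all genes fell in that step with all libraries.

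**Figure D4:**
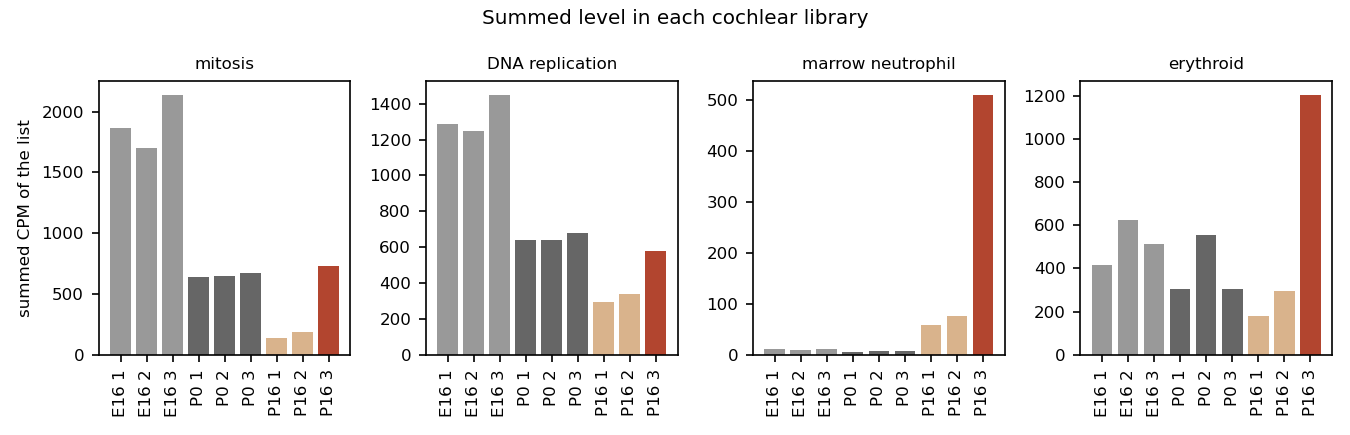
Summed CPM of 4 gene lists (mitosis, DNA replication, marrow neutrophil and erythroid genes) in each of the 9 cochlear libraries, by age; each bar is 1 library, and P16 replicate 3 is drawn in red. It lies above P16 replicates 1 and 2 in all 4 panels, at 732 CPM against 138 and 187 CPM for mitosis.

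Of 27 DNA replication genes, 18 were lower at P16 (66.7%, all genes 9.55%) with a median of -1.64. Without P16 replicate 3, 22 were lower. The helicase subunit gene Mcm3 was at 73.6, 73 and 85.8 CPM at E16, 26.9, 30.2 and 32.9 CPM at P0 and 10.5, 9.63 and 24.8 CPM at P16, and the polymerase gene Pola1 at 70.6, 59 and 79.5, 31.9, 21.9 and 25.6 and 22.1, 23.2 and 26.9 CPM. Both passed by P0 with all libraries, and Pola1 had its larger step there (difference 1.25 ± 0.28, adjusted p = 0.0034). Without P16 replicate 3 Mcm3 passed in both steps, with a later step of -1.55. The call for the step to P0 was lost for Mcm3 without E16 replicate 1, 2 or 3 or P0 replicate 1, 2 or 3 (log2 -1.29 to -1.44) and for Pola1 without E16 replicate 3 or P0 replicate 2 (log2 -1.28 to -1.29). The G1 genes Ccnd1 (log2 -3.04 ± 0.14), Ccnd2 (-2.31 ± 0.12) and Cdk4 (-2.47 ± 0.10) passed after P0 only, and Ccnd1 was at 119.5, 125 and 132 CPM at E16, 97.2, 126 and 113 CPM at P0 and 17.1, 15.5 and 13.2 CPM at P16. Of the inhibitors, Cdkn1a was higher at P16 and had risen by P0 with all libraries (23.2 ± 1.96 to 58.5 ± 8.76 CPM), a step that was not called without E16 replicate 1 or 3 or P0 replicate 2 or 3 or P16 replicate 3 (log2 1.26 to 1.31). Cdkn1c fell after P0 (174 ± 13.4 to 14.8 ± 1.85 CPM), while Cdkn1b, which keeps sensory cells out of the cycle, was not called (0.93).

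Growth genes of the fetus fell after birth. Of 20 imprinted growth genes 11 were lower (55%, all genes 9.55%), all 11 in the step after P0. Meg3 was the 1 called higher (5%, all genes 14.8%). The list median was 0.09 for the step to P0 and -2.38 for the later step. Igf2 (chromosome 7, 142650766-142666816), a fetal growth factor, was at 627, 839.8 and 634 CPM at E16, 701, 979 and 939 CPM at P0 and 74.6, 90.6 and 105 CPM at P16 (net log2 -2.96 ± 0.19, adjusted p = 1.88e-07). The non-coding RNA H19 from the same domain fell from 773, 999 and 940.4 to 8.75, 11.4 and 9.32 CPM, Dlk1 from 13.5 ± 7.44 to 0.172 ± 0.0401 CPM and the growth inhibitor Grb10 from 468 ± 36.2 to 42.8 ± 3.34 CPM. Meg3, a non-coding RNA of the Dlk1 domain, moved the other way, with 341, 368 and 306 CPM at E16, 375, 499 and 515 CPM at P0 and 1566, 1565 and 1300 CPM at P16. In the list around the RNA-binding protein Lin28, which keeps let-7 microRNAs low in the embryo, 9 of 15 were lower (60%, all genes 9.55%). Lin28b fell from 17.3 ± 2.4 through 7.46 ± 1.28 to 5.8 ± 1.36 CPM, Igf2bp3 by -2.19 ± 0.11, Mycn by -2.18 ± 0.13 and Myc by -2.79 ± 0.40 (net log2).

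Among 23 genes of DNA methylation and Polycomb complexes 4 were lower (17.4%, all genes 9.55%). Cbx7 was the 1 called higher (4.35%, all genes 14.8%), with a log2 fold change of 3.01 ± 0.15. Ezh2, the histone methyltransferase of Polycomb complex 2, was at 163, 124 and 173 CPM at E16, 43.9, 30.5 and 31.9 CPM at P0 and 40.1, 37.2 and 39.2 CPM at P16. The P0 and P16 libraries overlapped, and the earlier step was the larger (difference 2.25 ± 0.29, adjusted p = 0.000106). Its relative Ezh1 had a net value of 1.01 that was not called, and the de novo methyltransferase gene Dnmt3b was lower at P16 (-1.85 ± 0.16).

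Ezh2 belongs to a small set in which the earlier step was the larger although it is the shorter. The set held 194 genes higher and 52 lower. Its largest differences between steps, with at least 20 CPM at some age, were for Pkp1, 4932411E22Rik, Vit and Ppp1r1b among genes higher and for Adarb2, Fam111a, Gja1 and Ezh2 among genes lower. Pkp1, a desmosomal plaque protein, was at 0.0778, 0.933 and 0.293 CPM at E16, 18.9, 35.2 and 20.1 CPM at P0 and 14.4, 7.22 and 9.6 CPM at P16. Ppp1r1b, a phosphatase inhibitor known from neurons with dopamine input, was at 0.428, 0.446 and 0.329, 19.5, 32.4 and 16.3 and 114, 107 and 114 CPM and rose in both steps. Adarb2 fell from 20.8 ± 2.53 to 3.45 ± 0.455 CPM and stood at 6.12 ± 1.38 CPM at P16.

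The opposite pattern, a step against the net direction, was largest in Bcl6, Gdf6, Mtfp1 and Hapln1 among genes higher and in Nell1, Matn1 and Ccer2 beside Tecta among genes lower. Bcl6, a transcriptional repressor, was at 2.41, 3.85 and 2.41 CPM at E16, 0.869, 1.29 and 1.11 CPM at P0 and 48.7, 55.1 and 79.4 CPM at P16. Gdf6, of the bone morphogenetic protein family, was at 5.13, 6.57 and 5.74, 1.82, 1.48 and 1.52 and 61.7, 76.1 and 57.9 CPM. Nell1, a secreted protein of bone growth, was at 30.1, 30.1 and 28, 77.7, 81.9 and 64.8 and 0.382, 0.345 and 0.278 CPM. In these 3 genes the ages did not overlap. The step to P0 was not called for Bcl6 without E16 replicate 2 or P0 replicate 1 or 3 (log2 -1.13 to -1.41), for Mtfp1 without E16 replicate 1 or 2 or P0 replicate 1 or 3 (log2 -1.22 to -1.29), for Nell1 without E16 replicate 3 or P0 replicate 1 or 2 or P16 replicate 3 (log2 1.27 to 1.32) and for Tecta without P0 replicate 3 (log2 1.23).

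Genes that respond to or carry thyroid hormone, which the cochlea needs for the onset of hearing, rose in part. Of 12 genes 5 were higher (41.7%, all genes 14.8%) and 1 lower (8.33%, all genes 9.55%). Dio2, the enzyme that activates the hormone, was at 0.544, 0.649 and 0.585 CPM at E16, 2.81, 2.51 and 1.39 CPM at P0 and 58.4, 41.7 and 37.7 CPM at P16 and rose in both steps (log2 1.90 ± 0.32 and 4.37 ± 0.26). The transporter gene Slco1c1 (6.94 ± 0.17) and the hormone-induced transcription factor gene Klf9 (4.77 ± 0.16) rose, and so did Hr, a corepressor induced by the hormone (2.5 ± 0.18). Ttr, which binds thyroxine in plasma, rose by 2.03 ± 0.19 net. Rxrg was lower, at 23.7 ± 1.3 CPM at E16 and 8.27 ± 0.679 CPM at P16.

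In the Wnt list 8 of 45 were higher (17.8%, all genes 14.8%) and 10 lower (22.2%, all genes 9.55%). The secreted inhibitors split, with Sfrp1 (log2 -2.83 ± 0.14) and Sfrp2 (-5.30 ± 0.41) falling and Sfrp4 (4.73 ± 0.31), Sfrp5 (4.88 ± 0.32) and Dkk2 (2.40 ± 0.12) rising after P0. Sfrp2 was at 50.3, 98.2 and 87.2 CPM at P0 and 0.803, 0.784 and 1.71 CPM at P16. The target genes Lef1 (-1.41 ± 0.12) and Sp5 (-3.19 ± 0.36) and the receptor genes Fzd2 (-1.64 ± 0.15), Ror1 (-1.59 ± 0.13) and Ror2 (-2.84 ± 0.20) were lower, whereas Notum, an inhibitor that is itself induced by Wnt, had risen by P0 from 4.59, 5.19 and 3.99 CPM to 17.2, 19.2 and 20.1 CPM (P16, 20.5, 28.3 and 23.6 CPM).

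In the Hedgehog list 3 of 13 were lower (23.1%, all genes 9.55%), and these were the transcription factors Gli1, Gli2 and Gli3. Gli3 was at 172, 176 and 178 CPM at E16, 215, 302 and 274 CPM at P0 and 38.9, 35.5 and 43.2 CPM at P16, and Dhh, a ligand made by Schwann cells, was higher. Of 29 genes of BMP and TGF-beta signalling 5 were higher (17.2%, all genes 14.8%) and 7 lower (24.1%, all genes 9.55%). Bmp6 rose in both steps, from 3.62, 4.87 and 3.77 CPM through 11.4, 14.4 and 15.3 CPM to 96, 107 and 101 CPM, Bmp4 was lower at P16 (-1.58 ± 0.13), and the antagonist genes Nog (-1.98 ± 0.21) and Fst (-2.41 ± 0.17) fell as well. Of 16 neurotrophin genes, Ntf3, a survival factor of spiral ganglion neurons, fell from 18.1, 21 and 18.9 CPM at E16 through 10.3, 9.35 and 9.39 CPM at P0 to 2.6, 2.32 and 1.94 CPM at P16 (net log2 -3.07 ± 0.15, adjusted p = 2.98e-08). Bdnf, with 6.19 ± 0.7 CPM at E16 and 12.1 ± 2.69 CPM at P16, was not called.

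**Figure D5:**
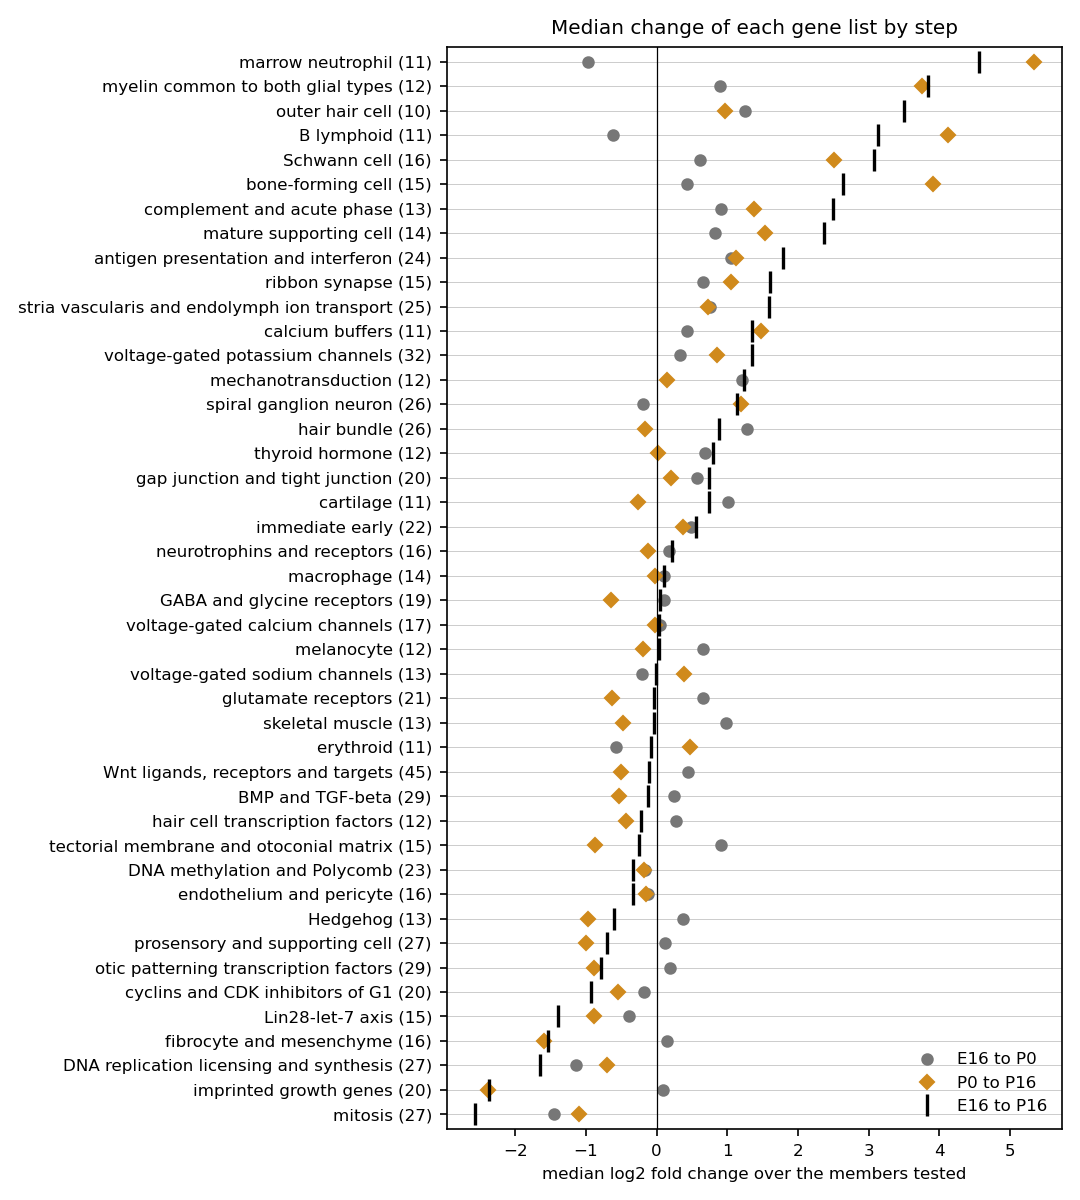
Median log2 fold change over the tested members of each gene list (horizontal axis) for the step from E16 to P0 (grey circles), the step from P0 to P16 (orange diamonds) and the net change (black bars), with 1 list per line and its number of members in brackets. The circles of the hair bundle and mechanotransduction lists lie right of their diamonds, the diamonds of the myelin, Schwann and bone lists lie far right of their circles, imprinted growth genes have a circle near 0 and a diamond far to the left, and mitosis and replication genes have both on the left.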

How the data were processed

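RNA was sequenced from mouse cochlear tissue at 3 ages, with 3 libraries per age. Per the study's methods the authors extracted RNA with a Direct-zol kit, made libraries with the NEBNext Ultra II Directional kit after depletion of ribosomal RNA, and aligned and counted reads with STAR on mm10 and GENCODE genes. The submitters' processing notes name STAR 2.5.3a and HTSeq. The deposited values are raw counts. The setting for strand in the counting is not given in the sources used here. Groups came from sample titles. All 20 columns matched a sample, and the 11 libraries of the superior olivary complex were left out.

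Counts of the 9 cochlear libraries were fitted together with edgeR 4.0.16 in R 4.3.3 (TMM factors, a mean per age, robust quasi-likelihood F test), after the study's thresholds, for the net change, both steps and the later minus the earlier step. CPM use TMM-scaled library sizes, and values are means ± SD over 3 libraries or log2 fold changes ± SE. A gene was taken as changed by P0, after P0 or in both steps by which steps passed all criteria in the net direction. The share reached by P0 is the log2 change to P0 over the net log2 change. A count of 0 allows up to 3 counts, and such floors cover counting error only. The fit and the classes were tested on simulated data. Positions are from GENCODE M21 (mm10) and promoters from RefSeq (GRCm38.p6), which held 12707 of the genes tested. DNA sequence other than these windows was not used here.

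Named are the 12 genes with the largest net change in each direction with at least 50 CPM at the higher age, the 4 with the largest net change in each timing class and direction and the 4 with the largest difference between steps toward the earlier step, both with at least 20 CPM, and members of 47 hand-written gene lists. Some genes that these rules name are not reported here. The members and lists were chosen with earlier results of these data known. DESeq2 1.42.0, upper-quartile scaling, a test against the fold threshold (glmTreat), a fold over 2, a minimum of 1 CPM, no minimum, GC-adjusted offsets, a replicate block and leaving out each library were the alternatives.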

Additional observations from a re-analysis of the deposited data

How the results depend on the processing

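None of the genes named by the rules for the largest changes reversed its net direction under any alternative. Their net calls were kept in 948 pairs of gene and alternative and lost in 2. Of the counts of list members called higher or lower, 1684 stayed near the reported count under the alternatives. A further 102 moved by more than a set factor, or to or from 0. Net calls shared with the 5133 reported numbered 5087 with DESeq2 and 5121 with upper-quartile scaling. They numbered 5072 with the replicate block, 5041 with GC-adjusted offsets and 4526 with a minimum of 1 CPM. Tested against the fold of 2.5 (glmTreat), 1806 genes were higher and 907 lower. Of those higher, 60 passed by P0, 1105 after P0, 24 in both steps, 0 with an overshoot and 1 with a reversal, and the earlier step was the larger in 89. Of those lower, 13 passed by P0, 545 after P0, 3 in both steps, 0 with an overshoot and 3 with a reversal, and the later step was the larger in 577 and the earlier in 11. With a fold over 2, both steps held 311 genes higher and 108 lower, overshoots 20 and 4, reversals 77 and 102, 320 genes were lower by P0 and 101 of the genes lower had the larger step before P0. A minimum of 1 CPM gave 6 and 1 overshoots, and GC-adjusted offsets 1 among genes lower. Division by the share of the log2 change reached at P0, with limits of 33.3% and 66.7% in place of the tests, put 756 genes higher and 468 lower in both steps. The causes were not tested.

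Leaving out 1 library gave 2949 to 3216 genes higher and 1922 to 2200 lower. By P0 the range was 218 to 332 higher and 112 to 206 lower, after P0 1856 to 2029 and 1124 to 1389, in both steps 134 to 191 and 40 to 121, in neither 588 to 720 and 459 to 607, overshoots 6 to 14 and 0 to 2, and reversals 24 to 54 and 33 to 51. The later step was the larger in 995 to 1491 and 883 to 1292, the earlier in 131 to 211 and 27 to 70. Lower by P0 dropped to 119 without E16 replicate 1, 112 without E16 replicate 3 and 116 without P0 replicate 2, lower in both steps rose to 121 without P16 replicate 3, and reversals among genes higher were 26 without E16 replicate 1 and 24 without P0 replicate 3. Genes lower with the larger earlier step were 28 without P0 replicate 2 and 27 without P0 replicate 3.

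The labels do not say whether equal replicate numbers mark a pair, and the counts do not settle it. Deviations of same-numbered libraries of different ages correlated at -0.265 to 0.512, and those of differently numbered ones at -0.567 to 0.474. Between replicate 1 libraries the values were 0.408 to 0.476, while replicates 2 and 3 had both signs. The replicate block moved overshoots among genes lower to 1 and the mitosis genes that passed by P0 to 7. Under it 15 of the ion transport genes of the stria were higher, 20 DNA replication genes lower and 10 myelin genes higher. Within ages, libraries deviated along transcript GC content with a Spearman correlation over 0.3 in size in 8 of 9. Of the named genes, Adarb2 (adjusted p = 0.0264) and Fam111a (0.0835) lost their net call under glmTreat. The mitosis genes that passed by P0 numbered 12 with DESeq2, 4 with GC-adjusted offsets and 0 with glmTreat, under which 1 otic patterning factor was lower.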

Other observations

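Of 24 antigen presentation and interferon genes, 16 were higher at P16 (66.7%, all genes 14.8%). The list median was 1.79 for the net change (all genes, 0.0084) and 1.05 for the step to P0. H2-K1, which encodes a class I molecule that presents peptides on the cell surface, was at 5.91, 6.25 and 5.41 CPM at E16, 15.8, 18.9 and 13.8 CPM at P0 and 90.5, 81.2 and 84.2 CPM at P16 and rose in both steps (net log2 3.86 ± 0.14, adjusted p = 4.45e-09). The ages did not overlap. The interferon-induced gene Ifit1 rose in both steps (0.437 ± 0.133, 1.85 ± 0.246 and 13.1 ± 2.54 CPM). Of 13 complement and acute phase genes 7 were higher (53.8%, all genes 14.8%). C4b was at 0.194, 0.568 and 0.329 CPM at E16, 1.53, 3.18 and 1.59 CPM at P0 and 35.3, 29.5 and 32.8 CPM at P16. Of 14 macrophage genes Cd163 was the 1 called higher (7.14%, all genes 14.8%), with a net log2 change of 2.03 ± 0.24. Without P16 replicate 1 or 2, 2 genes were higher. Csf1r stood at 36.5 ± 1.69 CPM at E16 and 43.9 ± 11.1 CPM at P16. B lymphoid genes were higher in 8 of 11 members (72.7%, all genes 14.8%), and in 5 without E16 replicate 1 or 2. Their sum was not higher, with 446, 379.9 and 452 CPM in the E16, 447, 407 and 425 CPM in the P0 and 341, 342 and 394 CPM in the P16 libraries. Their part in the immune genes was not tested.

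Hemoglobin genes of the embryo had fallen by birth. Hbb-y was at 3.46, 3.33 and 2.41 CPM at E16, 0.0414, 0.0369 and 0 CPM at P0 and 0, 0 and 0.119 CPM at P16, and Hba-x at 1.09, 2.6 and 0.768 CPM at E16 and 0 counts at P16, at least 13.8-fold lower with the floor of 3 counts taken per library. Both belong to families of related globin genes, and whether counts are shared between members was not tested. The adult gene Hbb-bs stood at 274, 382 and 353 CPM at E16 and 111, 139 and 526 CPM at P16 and was not called with all libraries. Without P16 replicate 3, the highest of the P16 libraries, it was lower (log2 -1.44, adjusted p = 0.000233). Of 13 skeletal muscle genes 4 were higher (30.8%, all genes 14.8%) and 1 lower (7.69%, all genes 9.55%) with all libraries. Myh3, the myosin of embryonic fibres, was at 8.98, 10.5 and 1.76 CPM at E16 and 0.191, 0.251 and 0.119 CPM at P16. Its libraries were widely spread and its net change was not called, but it was without P0 replicate 2 (log2 -5.17). Chrng, the fetal subunit of the muscle acetylcholine receptor, rose to P0 and fell below its start (2.3 ± 0.232, 6.45 ± 1.4 and 0.253 ± 0.0242 CPM). In the melanocyte list Mitf rose after P0 (log2 2.13 ± 0.13) and Pmel fell (-2.81 ± 0.20). Of 22 immediate early genes 6 were higher (27.3%, all genes 14.8%). Among them, Fos was at 0.739, 0.771 and 0.768 CPM at E16 and 3.33, 2.98 and 3.93 CPM at P16. Of 16 endothelial and pericyte genes Plvap was the 1 called (6.25%, all genes 9.55%), lower at P16 (-2.07 ± 0.42).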
